A study of Mus musculus with 6 samples.

Results

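The genes described here encode the lysosome and the autophagy machinery. They are 39 genes out of the 27179 gene identifiers measured: 15 lysosomal hydrolases and their activators, 6 lysosomal membrane proteins, 4 subunits of the vacuolar proton pump, 2 transcription factors of lysosomal genes and 12 autophagy genes. The genes were chosen by name with earlier results of these data known, so counts set beside those of all tested genes are a description only. RNA was sequenced from lenses of B6/FVB mice on postnatal day 1, in 3 libraries of genotype Gclc KO and 3 of genotype Gclc CON (here KO 1 to KO 3 and CON 1 to CON 3, with values given in the order of library 1, 2 and 3). The product of Gclc is part of glutamate-cysteine ligase, the enzyme that limits glutathione synthesis, and the comparison asks which lens transcripts differ when the gene is deleted. The Cre driver, the deleted exons, the sex, the litter and the number of animals in a library are not given in the sources used here. Nothing in the labels ties the libraries to separate animals, so p-values reflect no more than the spread among the 6 libraries, which may be technical.

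Libraries held 20361430 to 43384443 reads in genes in CON and 45842484 to 61219009 in KO. Values are normalised reads, that is, reads divided by the size factor of the library, and were recovered exactly from the deposited log2 values. Gclc had 178, 283 and 173 normalised reads in the CON libraries and 17.9, 72.1 and 58.1 in the KO libraries (log2 difference -1.01, SE 0.28, limma adjusted p = 0.0387), so it was lower in every KO library than in any CON library. That call did not hold without CON 2, KO 1, KO 2 or KO 3 (highest adjusted p, 0.13), nor with voom on the recovered reads and the size factors (log2 difference -2.16, adjusted p = 0.0609) and in 6 other alternatives. Log2 differences are given on the deposited variance-stabilised scale, which understates those of genes with few reads. The tissue label fits the markers of lens: the fibre water channel gene Mip had 182282 to 222688 normalised reads in CON. Crystallins, the main soluble lens proteins, took 59.5% to 68.4% of reads in CON and 40.5% to 47.5% in KO, and of 12 lens fibre markers 11 fell in KO (5 without CON 2, 6 without CON 3 or KO 2, 7 without KO 1 or KO 3, and 7 when scaled by total reads). Of 23 tested macrophage markers 17 rose, and their values are set beside the lysosomal genes further on. In bulk tissue, more cells of a type and more RNA per cell cannot be told apart.

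Lysosomes are acidic organelles in which hydrolases break down proteins, lipids and sugars that arrive by endocytosis or by autophagy. A proton pump of many subunits acidifies them, and membrane proteins protect them and export what is released. Autophagy wraps cytoplasm or organelles in a double membrane built by the ATG proteins and the lipid-linked LC3 and GABARAP proteins, and delivers it to the lysosome. TFEB and TFE3 are related transcription factors that bind an E-box with particular flanks, called the CLEAR element, in promoters of many lysosomal genes, and the kinase mTOR keeps them in the cytoplasm of fed cells. In the lens, fibre cells lose their nuclei, mitochondria and endoplasmic reticulum as they mature, and macrophages, which are rich in lysosomal hydrolases, are a regular part of the tissues around the newborn lens.

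The promoters of the genes are shown first, because the E-box is known from promoters of many, though not all, lysosomal genes. RefSeq promoter windows of 300 bases (250 before and 50 after the annotated start, GRCm38.p6) were matched by gene identifier for 30 of the 39 genes. The core CACGTG was in at least 1 window of 12 of these 30 genes (40%), against 8.09% of the 27025 genes with a window and 11.99% of the 9082 of them that were tested. The longer TCACGTGA was in 6 of 30 (20%), against 1.12% of all genes and 2.35% of the tested ones. Both motifs read the same on both strands, and the longer contains the shorter. The core was in 10 of 19 lysosomal genes with a window and in 2 of 9 autophagy genes, Atg5 and Atg7. The 8-base form was in 6 of 19 lysosomal genes and in 0 of 9 autophagy genes. Ctsd and Lamp1 are printed for the 250 bases before the start, since one was called higher in KO and the other was not, and both hold more than 1 copy. The capitals mark CACGTG, or TCACGTGA where the flanks are present.
Ctsd, chr7:142387828-142388077, minus strand: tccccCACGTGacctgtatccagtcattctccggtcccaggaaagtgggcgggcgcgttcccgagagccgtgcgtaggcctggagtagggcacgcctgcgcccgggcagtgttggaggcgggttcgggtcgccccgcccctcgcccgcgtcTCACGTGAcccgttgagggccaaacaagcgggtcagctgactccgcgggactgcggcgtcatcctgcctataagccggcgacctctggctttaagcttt
Lamp1, chr8:13158911-13159160, plus strand: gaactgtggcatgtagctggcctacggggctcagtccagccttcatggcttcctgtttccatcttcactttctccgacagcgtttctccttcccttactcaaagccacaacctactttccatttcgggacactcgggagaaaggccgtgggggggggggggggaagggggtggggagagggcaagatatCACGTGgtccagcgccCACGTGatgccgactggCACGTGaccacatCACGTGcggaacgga

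The Ctsd stretch held the core 245 and 98 bases before the start, and the nearer copy had the 8-base flanks. The Lamp1 stretch held 4 cores, 61, 45, 28 and 15 bases before the start, none with the 8-base flanks. The other genes with the 8-base form, and Ctsl as a called gene with the core alone, are shown by shorter stretches around the motif, so that the shared letters can be compared. Cln3, Mcoln1 and Ctsa also held 2 cores each in the 300-base window, of which the stretch shows 1.
Cln3, chr7:126583330-126583379, minus strand: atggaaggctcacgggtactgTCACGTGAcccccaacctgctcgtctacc
Mcoln1, chr8:3500452-3500501, plus strand: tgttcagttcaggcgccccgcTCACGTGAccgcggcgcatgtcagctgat
Atp6v1a, chr16:44139363-44139412, minus strand: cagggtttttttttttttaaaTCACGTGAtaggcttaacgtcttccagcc
Ctsa, chr2:164833749-164833778, plus strand: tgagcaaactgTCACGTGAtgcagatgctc
Atp6v0d1, chr8:105566050-105566079, minus strand: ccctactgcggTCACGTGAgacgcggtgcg
Ctsl, chr13:64370729-64370770, minus strand: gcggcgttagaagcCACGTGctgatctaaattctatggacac

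Of the genes with the 8-base form, Ctsd alone was called in KO against CON, and the other 5 (Atp6v0d1, Atp6v1a, Cln3, Ctsa and Mcoln1) were not. Gaa and Glb1 held the core without the flanks. Of the 7 called genes, 4 had a window: Ctsd and Ctsl held the core, and Grn and Lamp2 did not. A match is a description of the letters in the window and was not tested as a binding site.

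Lysosomal genes were higher in KO in part, and the autophagy genes were not called in either direction. All 39 genes passed the filter on low values and were tested with limma among 11468 genes, with Benjamini-Hochberg adjustment over all of them. Of the 25 lysosomal genes 7 rose and 0 fell at an adjusted p under 0.05, against 6.91% of all tested genes called higher and 4.39% called lower. At an unadjusted p under 0.05, 12 were higher and 0 lower, and voom on the recovered reads with the size factors called 6 higher and 0 lower. The 7 were the proteases Ctsd, Ctsb, Ctsl and Ctsh, the progranulin gene Grn, the membrane protein gene Lamp2 and the pump subunit gene Atp6v1h. Their KO values lay above their CON values in all libraries. The median log2 difference of the 25 was 0.48, against 0.03 for all tested genes, and 22 of the 25 differences were above 0. In 14 of the 25 every KO library was above every CON library, against 16.9% of all tested genes. The count of 7 fell to 1 without KO 2, to 2 without KO 3, and to 3 without CON 2 or without KO 1. The library names of KO 2 and KO 3 share a style that the other 4 names do not have. With that style as a covariate the difference compares KO 1 alone with the CON libraries, whose style it shares. A difference that rests on 1 KO library cannot be told apart from variation between libraries. All 7 differences stayed above 0 in that fit, which is no test of them.

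**Figure D1:**
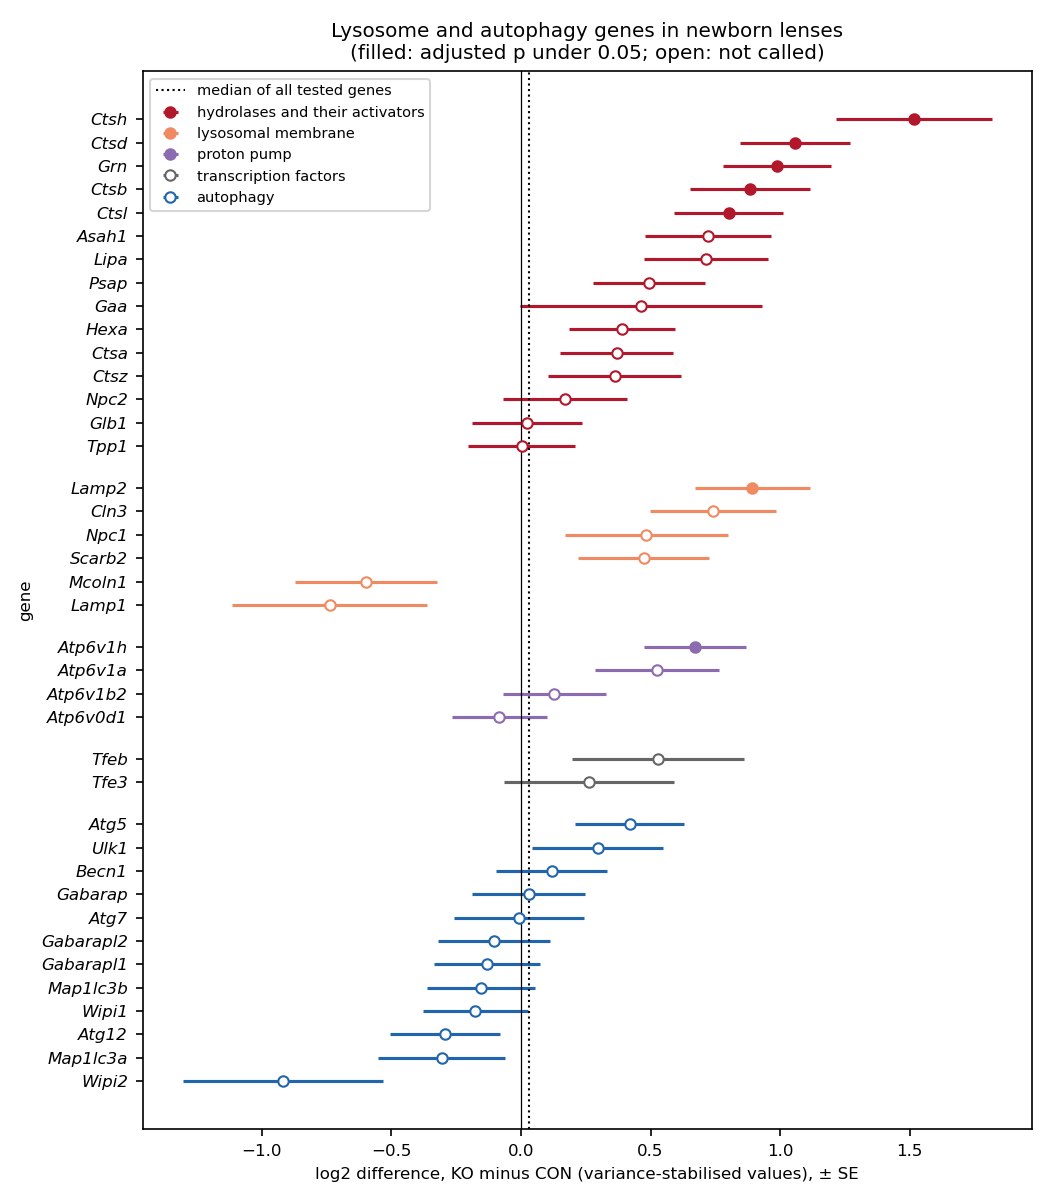
Log2 difference between KO and CON (x axis, variance-stabilised values) for each of the 39 genes (y axis), grouped by role, with bars of 1 SE; filled points passed an adjusted p under 0.05 and the dotted line is the median of all tested genes. The 7 filled points lie between 0.67 (Atp6v1h) and 1.52 (Ctsh), and the 12 autophagy genes lie between -0.92 (Wipi2) and 0.42 (Atg5).

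Among the 15 hydrolases and activators 5 rose (33.3%, against 6.91% of all tested genes), and each of the 15 differences was above 0. Ctsd, the main aspartic protease of the lysosome, had 24617, 19719.7 and 22909 normalised reads in the CON libraries and 37893, 53464 and 50225 in the KO libraries. It rose from 22415 ± 2486 to 47194 ± 8216 (SD, n = 3; log2 difference 1.06, SE 0.21, limma adjusted p = 0.00878). KO 2 and KO 3 were higher than KO 1, and the groups did not overlap. Ctsh, a cysteine aminopeptidase, had 595, 356 and 1068 in CON and 2216, 2311 and 1772 in KO. Its 3.12-fold rise was the largest among the 39 genes (log2 difference 1.52, SE 0.30, limma adjusted p = 0.00828). It is the only one of the 7 that kept its call when any single library was left out (highest adjusted p, 0.0387). Ctsd was not called without KO 2 or KO 3 (highest adjusted p, 0.0568).

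Ctsb and Ctsl encode cysteine proteases that are found in most cells. Ctsb had 8111, 8733 and 10875 normalised reads in the CON libraries and 22452, 16726 and 13244 in the KO libraries, a 1.89-fold rise (log2 difference 0.88, SE 0.23, limma adjusted p = 0.031). Ctsl had 5795, 6637 and 8619.8 in CON and 13686, 12175 and 10898 in KO, a 1.75-fold rise (log2 difference 0.80, SE 0.21, limma adjusted p = 0.031). Both were highest in KO 1 and lowest among the KO libraries in KO 3, and neither overlapped between the groups. Ctsb was not called without CON 2, KO 1 or KO 2 (highest adjusted p, 0.114), and Ctsl without CON 2 or any single KO library (highest adjusted p, 0.127). Grn encodes progranulin, a secreted protein that is taken up into lysosomes and needed for their function. It had 3474, 2666 and 3288 in CON and 5297, 7516 and 6477 in KO, a 2.05-fold rise (log2 difference 0.99, SE 0.21, limma adjusted p = 0.0115). As for Ctsd, KO 2 and KO 3 were its higher KO libraries, and the call did not hold without either of them (highest adjusted p, 0.0876).

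The other 10 hydrolases and activators did not pass the test, with log2 differences from 0.00 (Tpp1, a peptidase) to 0.72 (Asah1, acid ceramidase). In 4 of them every KO library was still above every CON library, against 16.9% of all tested genes. Asah1 had 2300.2, 3232 and 3745 in CON and 6696, 4565 and 4386 in KO (adjusted p = 0.079 by limma). Lipa, the acid lipase that splits cholesterol esters, had 2138, 2077 and 3640.2 in CON and 4740.4, 4337 and 3785 in KO (adjusted p = 0.0796 by limma). Both passed with quantile normalisation and with voom on non-crystallin or total reads, and Lipa was also called higher without CON 3 (adjusted p = 0.0198). Psap, whose product is cut into the saposins that present lipids to the enzymes, had a difference of 0.50 (adjusted p = 0.168) and Hexa, a subunit of beta-hexosaminidase, one of 0.39 (adjusted p = 0.256). The carboxypeptidases Ctsz (0.36) and Ctsa (0.37), the glucosidase Gaa (0.46), the cholesterol carrier Npc2 (0.17) and the galactosidase Glb1 (0.02) overlapped between the groups. Gaa ranged widely within each group, with 1934, 598 and 535 in CON and 551, 1679.7 and 2062 in KO. Summed over the 15 genes, CON libraries held 80663 to 98431 normalised reads and KO libraries 134793 to 153053.

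Of the 6 membrane genes 1 rose, against 6.91% of all tested genes. In so short a list 1 call is near that share. Lamp2, a heavily glycosylated protein of the lysosomal membrane that also takes part in fusion with autophagosomes, had 5456, 3789 and 6434 normalised reads in the CON libraries and 10271, 9146 and 9527 in the KO libraries. It rose 1.85-fold (log2 difference 0.89, SE 0.22, limma adjusted p = 0.0245), and the 3 KO libraries were close together. The call did not hold without CON 2 or any single KO library (highest adjusted p, 0.0883). Its relative Lamp1 was not called. It had 5821, 2672 and 1499 in CON and 2012, 1618 and 1395 in KO (log2 difference -0.74, SE 0.38, limma adjusted p = 0.24). The CON libraries of Lamp1 differed more among themselves than the groups did, and the lowest of them overlapped with KO. Without CON 3 Lamp1 was called lower (adjusted p = 0.0435).

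The other 4 membrane genes were not called. Cln3, whose loss causes a childhood storage disease, had 436, 280.1 and 307 in CON and 767, 588 and 654 in KO, without overlap (log2 difference 0.74, SE 0.24, limma adjusted p = 0.073). It was called higher without CON 1 (adjusted p = 0.0321). Scarb2, the receptor that carries beta-glucocerebrosidase to lysosomes, did not overlap either, with a difference of 0.47 (adjusted p = 0.266). Npc1, the membrane partner of Npc2 in cholesterol export, had a difference of 0.48 with overlap (adjusted p = 0.362). Mcoln1, a calcium channel of the lysosome, had 2878, 1668 and 1342 in CON and 1090.2, 1033 and 1441 in KO (log2 difference -0.60, limma adjusted p = 0.192). Its highest KO library lay above its lowest CON library.

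Of the 4 pump subunits 1 rose, against 6.91% of all tested genes, and in a list of 4 genes 1 call is near that share. Atp6v1h, a regulatory subunit of the cytoplasmic part of the pump, had 1834, 2175 and 2322 normalised reads in the CON libraries and 3540.2, 3208 and 3610.5 in the KO libraries. The 1.64-fold rise had a small spread in both groups but was just inside the threshold (log2 difference 0.67, SE 0.20, limma adjusted p = 0.0482), and leaving out any 1 of the 6 libraries ended the call (highest adjusted p, 0.207). Atp6v1a, the catalytic subunit, had 3001, 1649 and 2838 in CON and 3657, 3589 and 3426 in KO, without overlap (log2 difference 0.52, adjusted p = 0.187 by limma). Atp6v1b2 (0.13) and Atp6v0d1 (-0.08) overlapped between the groups. Atp6v0d1 was the steadiest of the 4, with 5519, 5545 and 6050.4 in CON and 5697, 5022 and 5413 in KO.

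Neither transcription factor gene was called. Tfeb had 129.8, 85 and 36.9 normalised reads in the CON libraries and 64.5, 256 and 225 in the KO libraries (log2 difference 0.53, SE 0.33, limma adjusted p = 0.345; 0.97 with voom on the reads). Tfe3 had 644, 220.3 and 280.2 in CON and 291, 569.9 and 534 in KO (log2 difference 0.26, SE 0.33, limma adjusted p = 0.667). Both were lower in KO 1 than in KO 2 and KO 3, and both overlapped between the groups. With the style covariate, which compares KO 1 alone with CON, both differences turned below 0 (Tfeb -0.11, Tfe3 -0.18). RNA levels carry no information on where in the cell these proteins were.

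The autophagy genes did not pass the test, and 9 of the 12 overlapped between the groups. Every KO library was above every CON library in 2 and below in 1, against 16.9% and 14.1% of all tested genes. Of the 12 genes 0 rose and 0 fell by limma, against 6.91% and 4.39% of all tested genes. In a list of 12 genes a count of 0 is near those shares. For 1 gene (Wipi2, lower) the unadjusted limma p was under 0.05. With voom on the recovered reads and the same size factors 0 were called, and scaled by the total reads of each library 6 were called higher. That last scaling moved the median of all genes from 0.03 to 0.86, with a median of 0.72 for the 12 autophagy genes and 1.31 for the 25 lysosomal genes. On the deposited scale the median of the 12 was -0.12, and 4 of the 12 differences were above 0. Summed over the 12 genes, CON libraries held 34806 to 42531 normalised reads and KO libraries 33339 to 35182, so the KO range overlapped the lowest CON library.

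The LC3 and GABARAP family, whose products are linked to the lipid of the growing autophagosome, did not pass the test either. Map1lc3b had 7689, 10637 and 11233 normalised reads in the CON libraries and 9549, 8516 and 8165 in the KO libraries (log2 difference -0.15, SE 0.21, limma adjusted p = 0.693). Gabarapl1 had 7809, 7358 and 10349.9 in CON and 7594, 6886 and 8606 in KO (log2 difference -0.13, SE 0.21, limma adjusted p = 0.736). In both genes the KO values lay inside or close to the CON range. Map1lc3a (-0.31), Gabarapl2 (-0.10) and Gabarap (0.03) overlapped as well. Scaled by total reads, Map1lc3b was at 0.69 and Gabarapl1 at 0.68, both under the 0.86 of the median gene. Members of this family resemble each other in sequence, so reads may have been split between them.

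Atg5, Atg12 and Atg7 encode the conjugation system that attaches the LC3 proteins to lipid. Atg5 had 911, 809 and 1002 normalised reads in the CON libraries and 1385, 1231 and 1193 in the KO libraries (log2 difference 0.42, SE 0.21, limma adjusted p = 0.232). Its KO libraries were all above its CON libraries, while Atg12, whose product is joined to ATG5, was the reverse, with 3746, 3717 and 5477 in CON and 3407, 3651 and 3252 in KO (log2 difference -0.29, adjusted p = 0.42 by limma). Atg7, the activating enzyme, had a difference of -0.01. The kinase gene Ulk1, which starts autophagy, had few reads, with 24.3, 40.9 and 44.2 in CON and 49, 87.2 and 62.4 in KO (log2 difference 0.30, adjusted p = 0.505 by limma; 0.94 with voom on the reads). Becn1, of the lipid kinase complex, stood at 0.12, and Wipi1, which binds the lipid that this complex makes, at -0.18. Its relative Wipi2, which recruits the ATG16L1 complex, had 2749.9, 1602 and 819 in CON and 424, 1110.3 and 833 in KO (log2 difference -0.92, SE 0.39, limma adjusted p = 0.155). Wipi2 was called lower only without CON 3 (adjusted p = 0.0421), the library that was also lowest for Lamp1 in CON.

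**Figure D2:**
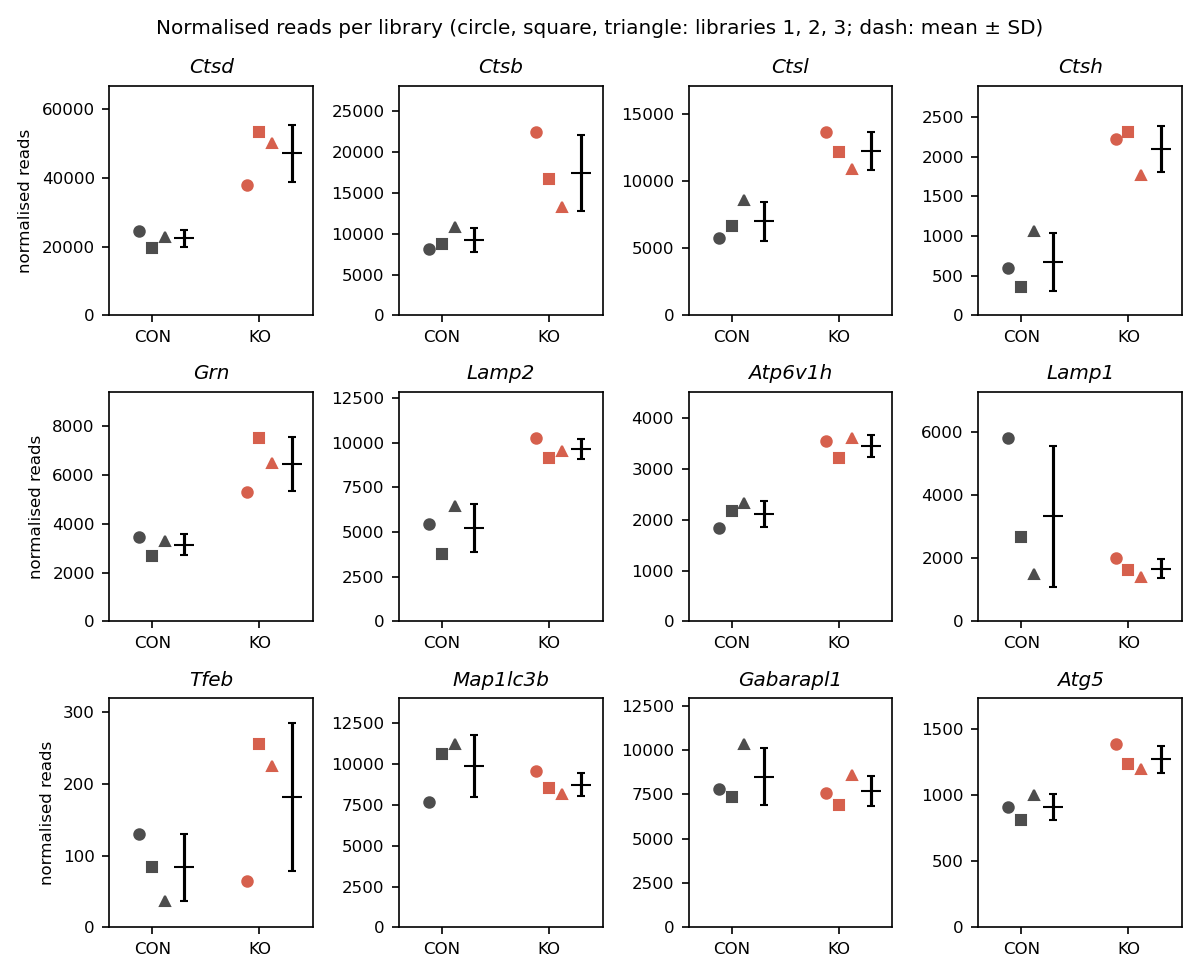
Normalised reads (y axis, from 0) in each CON and KO library (x axis) for the 7 called genes and for Lamp1, Tfeb, Map1lc3b, Gabarapl1 and Atg5; circles, squares and triangles are libraries 1, 2 and 3 and the dash with bar is the mean ± SD. The 7 called genes and Atg5 show KO points above all CON points, and Lamp1 shows CON points from 1499 to 5821 and KO points from 1395 to 2012.

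Levels can be compared between genes only per length of the transcript, here as normalised reads per kilobase of merged exons in CON. Ctsd had the highest level of the 39 genes, with a mean of 10539 (9271 to 11574 over the 3 libraries). Gabarapl1 had 4673.5 (4043 to 5687), Psap 3915 (3147 to 4666) and Ctsz 3886 (3125 to 4394), and these 3 do not differ beyond their spread. At the low end were Npc1 (29.4), Tfeb (20.9, 9.18 to 32.3) and Ulk1 (6.97, 4.64 to 8.46). Several genes share exonic sequence with an annotated neighbour. Of the exonic bases of Ctsd 31.5% lie in the predicted gene Gm49369 on the same strand, and of those of Ctsl 28.2% lie in Gm47123 on the opposite strand. Ctsb shares 16.3% with Fdft1, Becn1 29.6% with Cntd1, Ctsa 13.5% with Pltp and Atp6v1h 5.84% with Rgs20. Whether counting used the strand is not given in the sources used here, so reads in these stretches are uncertain.

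Macrophages are rich in the hydrolases described above, and their markers moved with KO. Of 25 macrophage markers 23 were tested, of which 17 rose and 0 fell (6.91% and 4.39% of all tested genes), with a median log2 difference of 1.44. The summed level of the 25 was 4161, 3090.4 and 5453 normalised reads in the CON libraries and 34448, 16850.0 and 10059 in the KO libraries, which is 8.13, 3.98 and 2.38 times the CON mean. KO 1 was highest and KO 3 lowest. Of the defining markers, the surface protein gene Adgre1 (46.4, 0 and 124 in CON against 1771, 465 and 329 in KO), the growth factor receptor gene Csf1r (395, 195 and 106 against 947, 814 and 472) and the leukocyte gene Ptprc (24.3, 0 and 2.95 against 339, 171 and 103) rose, with limma adjusted p = 0.0126, 0.0308 and 0.00924. The fourth, the transcription factor gene Spi1, had 84.4, 50.4 and 11.8 in CON and 17.9, 20.4 and 12.7 in KO and was too low to be tested. The count of 17 fell to 6 without CON 2, to 7 without KO 1, to 10 without KO 2 and to 12 without CON 3, and voom with the size factors called 5. Pigment cells also hold lysosome-related organelles, and the summed level of their 7 markers was 8110.1 to 10186 in CON and 11243 to 18028 in KO. Of 5 tested, against 6.91% of all tested genes, 1 was called higher, Tyrp1 (log2 difference 0.92, limma adjusted p = 0.0398). It was not called without CON 2, KO 1 or KO 2 (highest adjusted p, 0.172), nor with voom and the size factors (0.0598).

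The lysosomal genes followed that order of the KO libraries only in part. The summed hydrolases and activators stood at 1.73, 1.66 and 1.52 times the CON mean in KO 1, KO 2 and KO 3, while the autophagy sum stood at 0.925, 0.877 and 0.905. KO 1 was the highest KO library in 10 of the 15 hydrolases and activators, 4 of the 6 membrane genes and 4 of the 12 autophagy genes, against 41.7% of all tested genes (27.9% were highest in KO 2 and 30.4% in KO 3). Among the 7 called genes, Ctsb, Ctsl and Lamp2 were highest in KO 1, as the macrophage sum was. Ctsd, Ctsh and Grn were highest in KO 2, and Atp6v1h in KO 3. Of the 25 lysosomal genes, 3 were called higher without KO 1 (4.38% of all tested genes), 1 without KO 2 (3.11%) and 2 without KO 3 (4.17%). The part of macrophage and pigment cell RNA in the lysosomal results was not tested.

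**Figure D3:**
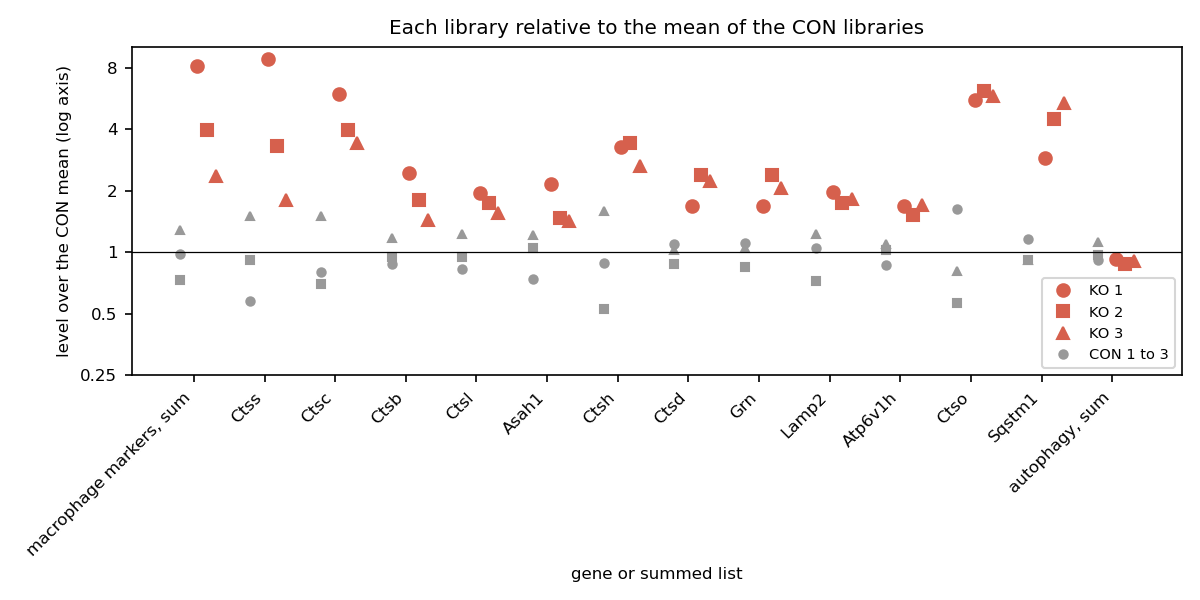
Level of each library divided by the CON mean (y axis, log axis) for the summed macrophage markers, single lysosomal genes, Sqstm1 and the summed autophagy genes (x axis); red points are KO 1 (circle), KO 2 (square) and KO 3 (triangle), grey points the CON libraries. The macrophage sum steps down from 8.13 in KO 1 to 2.38 in KO 3 and Ctss follows it, whereas Ctso lies between 5.58 and 6.17 in all KO libraries and the autophagy sum below 1.

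Genes of the pathway outside the 39 were taken from lists of the same roles. Of 31 tested other hydrolases 7 rose (22.6%, against 6.91% of all tested genes) and 0 fell, with a median of 0.48. The 3 with the smallest p were Ctso, Ctsc and Gla. Ctso, a cysteine protease, had 302, 104 and 149 normalised reads in the CON libraries and 1031, 1140.4 and 1071 in the KO libraries (5.85-fold, log2 difference 1.93, SE 0.27, limma adjusted p = 0.00141). Ctsc, which activates proteases of immune cells, had 1193, 1045 and 2240.5 in CON and 8901, 5894 and 5107 in KO (4.44-fold, log2 difference 2.06, SE 0.29, limma adjusted p = 0.00146). Both kept the call when any 1 library was left out. Gla, alpha-galactosidase, rose 2.39-fold (limma adjusted p = 0.0236), and was not called without CON 2 or any single KO library (highest adjusted p, 0.0891). Ctss, a protease of antigen-presenting cells chosen after its values were seen, had 367, 582 and 954 in CON and 5573, 2103 and 1144 in KO (log2 difference 1.75, SE 0.45, limma adjusted p = 0.0296). Its KO libraries had the same order as the macrophage sum, at 8.78, 3.31 and 1.80 times the CON mean, while those of Ctso were at 5.58, 6.17 and 5.79. The call of Ctss did not hold without CON 1, CON 2, KO 1 or KO 2 (highest adjusted p, 0.0944). The count of 7 was 2 without CON 2, KO 1 or KO 2, and 3 without KO 3.

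Of 29 other membrane and sorting genes 2 rose and 1 fell, a share near that of all tested genes. The 2 that rose encode both mannose 6-phosphate receptors, which carry new hydrolases from the Golgi to the lysosome. Igf2r, the larger receptor, had 317, 183 and 139 normalised reads in the CON libraries and 723, 1038 and 1059.7 in the KO libraries (4.42-fold, limma adjusted p = 0.00385). M6pr had 1450.4, 1536 and 1729 in CON and 3780.4, 3171 and 2894 in KO (2.09-fold, log2 difference 0.98, limma adjusted p = 0.0102). Neither overlapped between the groups, and of the pair only M6pr lost its call when 1 library, KO 2, was left out (adjusted p = 0.0568). Lamtor4, of the complex that anchors mTORC1 to the lysosome, fell by 0.86 on the log2 scale (limma adjusted p = 0.0356). It was not called without CON 2, CON 3, KO 2 or KO 3 (highest adjusted p, 0.188).

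Of 16 other tested pump genes 2 rose (12.5%, against 6.91% of all tested genes) and 0 fell, with a median of 0.09. Both are isoforms known from specialised cells such as osteoclasts and macrophages. Atp6v0d2 had 0, 0 and 4.42 normalised reads in the CON libraries, which is 3 reads in all, and 524, 203 and 122 in the KO libraries (limma adjusted p = 0.00348). Tcirg1 had 169, 59.8 and 11.8 in CON and 376, 489.9 and 614 in KO (6.15-fold, log2 difference 1.68, limma adjusted p = 0.00909). Atp6v0d2 was highest in KO 1, like the macrophage sum, and Tcirg1 in KO 3. Neither passed with voom on the recovered reads (adjusted p = 0.129 and 0.0646).

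Of 31 other genes of the autophagy machinery 1 rose (3.23%) and 0 fell, against 6.91% and 4.39% of all tested genes. It was Vamp8, which serves fusion of autophagosomes with lysosomes and also secretion, with 513, 1133 and 1224 normalised reads in the CON libraries and 2482, 1998 and 1746 in the KO libraries (log2 difference 1.05, limma adjusted p = 0.0373). It was not called without CON 2 or any single KO library (highest adjusted p, 0.122). Of 12 autophagy receptor genes 1 rose (8.33%) and 1 fell, near the shares of all tested genes. Sqstm1, which binds ubiquitinated cargo and is also a known target of the oxidative stress factor NRF2, had 9184, 7245 and 7255 in CON and 22853, 35589 and 42262 in KO. Its 4.25-fold rise (log2 difference 2.03, SE 0.25, limma adjusted p = 0.000595) passed without any 1 library. It also passed in all alternatives run, the style covariate not counted. KO 3 was its highest library and KO 1 its lowest, the reverse of the macrophage sum. Bnip3, a receptor for mitochondria that hypoxia induces, had 7206, 12214 and 10542 in CON and 4938, 4054 and 4519.6 in KO and fell by 1.09 on the log2 scale (limma adjusted p = 0.0104, and 0.06 without KO 2).

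Among 23 genes that control mTORC1 and TFEB 0 rose and 2 fell by limma, against 6.91% and 4.39% of all tested genes. At an unadjusted p under 0.05 by limma 2 were higher, and voom with the size factors called 0 higher. Sesn1, a leucine-regulated inhibitor of mTORC1, had 3756, 2694 and 3378 normalised reads in the CON libraries and 1397, 926 and 1207 in the KO libraries (log2 difference -1.36, limma adjusted p = 0.00347). Mtor, the kinase itself, had 963, 1400.5 and 1186 in CON and 602, 554 and 500.0 in KO (log2 difference -0.90, limma adjusted p = 0.0262). Both were lower in every KO library than in any CON library, and Mtor was not called without CON 2, CON 3 or any single KO library (highest adjusted p, 0.122). Scaled by total reads neither passed (adjusted p = 0.0709 for Sesn1 and 0.453 for Mtor).

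**Figure D4:**
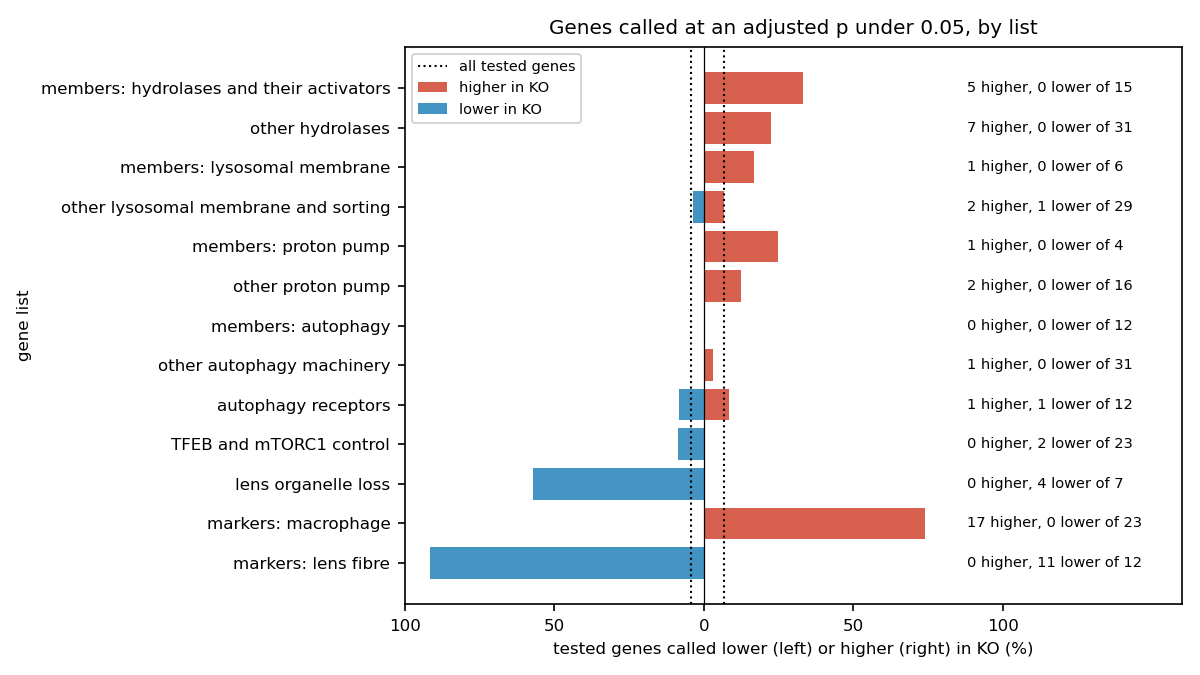
Share of tested genes called higher (red, to the right) and lower (blue, to the left) in KO at an adjusted p under 0.05 (x axis, %) for each list of genes (y axis), with counts at the right; dotted lines are the shares of all tested genes, 6.91% higher and 4.39% lower. The hydrolase lists reach 5 of 15 and 7 of 31 to the right, the autophagy genes have 0 of 12, and the lists of lens organelle loss and lens fibre markers lie to the left.

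Of the 7 genes known for the loss of organelles in lens fibres 0 rose and 4 fell (4.39% of all tested genes fell), with a median of -0.95. The other 3 had differences above 0 and overlapped between the groups. Dnase2b, the acid nuclease of lens fibre lysosomes that degrades their nuclear DNA, had 5882, 7106 and 9251 normalised reads in the CON libraries and 3409, 1723 and 2461 in the KO libraries (log2 difference -1.51, SE 0.26, limma adjusted p = 0.00449). Plaat3, a phospholipase that opens organelle membranes, had 14668, 20875 and 21313 in CON and 7572, 5388 and 9134 in KO (log2 difference -1.35, limma adjusted p = 0.00515). Hsf4, a transcription factor of fibre cells, fell by 1.13 on the log2 scale (limma adjusted p = 0.004). Tdrd7, an RNA granule protein, fell by 0.95 (limma adjusted p = 0.0312) and was not called without CON 3 or any single KO library (highest adjusted p, 0.121). The groups did not overlap in any of the 4. Scaled by total reads, Dnase2b and Plaat3 stayed called lower (adjusted p = 0.0295 and 0.039), and Hsf4 and Tdrd7 did not pass (0.198 and 0.683). The 12 lens fibre markers had a median of -1.40 in the same libraries, and their part in these differences was not tested.

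Markers of other cell types were counted in the same way, against 6.91% of all tested genes called higher and 4.39% called lower. In lists as short as these, 0 or 1 call is near those shares. Of 7 tested lens epithelium markers 3 rose (Pax6, Aqp1 and Mab21l1) and 3 fell (Cdh1, Fgfr3 and Slc38a3). Of these, 0 were called higher without CON 2, KO 2 or KO 3, 1 without KO 1 and 2 without CON 3, and 1 was called lower without KO 2 and 2 without CON 1, CON 2, KO 1 or KO 3. Of 6 endothelial and 3 red cell markers 0 were called, and of 2 mesenchymal markers 1 fell (Pdgfra).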

How the data were processed

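The authors deposited log2 values per gene and library after DESeq2's variance-stabilising transformation. Per the submitters' processing notes, the authors used Trimmomatic, HISAT2 2.1.0, mm9, featureCounts 1.6.4 and DESeq2 2.11.0.6. The transformation was inverted analytically: 100% of values came within 0.1 of whole reads. The lowest value, 6.504, is a gene without reads. The difference KO minus CON was fitted in R 4.3.3 with limma 3.58.1 (lmFit, eBayes with trend, no covariate) for genes whose mean lay 1 unit or more over that value. A gene was called where p, adjusted by Benjamini-Hochberg over the 11468 genes tested, was under 0.05. In simulated data with a single spread set for all genes, the fit called 17% of the genes changed by 1 on the log2 scale and 79% of those changed by 2. The SE of the members ranged from 0.18 (Atp6v0d1) to 0.47 (Gaa), so these shares need not hold for a given gene. A gene that was not called may still differ, and its log2 difference should be read with its SE. Symbols and exon lengths come from a GRCm38 annotation, which matched 25275 of 27179 identifiers (of 271 listed symbols, 1 was not matched).

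Members and lists were chosen with earlier results of these data known. All 39 members are accounted for. Values per library are given for called members and for Ctsd, Ctsl, Lamp1, Lamp2, Tfeb, Tfe3, Map1lc3b, Gabarapl1 and Atg5, and values of further members were chosen after they were seen. From each other list up to 3 called genes with the smallest p per direction are named, or all called ones where 5 or fewer. Some listed genes are not reported here. The alternatives were no filter or one of 3 units, equal library medians, quantile normalisation, eBayes without trend, log2 of normalised reads plus 1, voom on recovered reads with 3 library sizes, a replicate block, the style of library names, and each library left out.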

Additional observations from a re-analysis of the deposited data

How the results depend on the processing

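The 7 lysosomal genes called higher were 3 with equal library medians, 4 without the trend, 3 with the replicate block and 21 scaled by total reads. They were 1 to 7 when 1 library was left out. With all libraries kept and no style covariate, Ctsd, Ctsh and Grn passed in every alternative. Ctsb lost its call with equal medians, no filter, no trend and the replicate block. Ctsl lost it with equal medians, no trend and the block, and Lamp2 with equal medians and the block. Atp6v1h lost it wherever Ctsb did, and also with log2 of normalised reads plus 1 and voom with the size factors. The style covariate compares KO 1 alone with CON, so genotype rests on a single KO library in that fit and its calls are not counted here. Lysosomal genes called lower were 0 to 1 and autophagy genes called lower 0 to 1 when 1 library was left out (1 each without CON 3), and 6 autophagy genes were higher scaled by total reads. All genes called, 1297 in the reported fit, were 802 with the filter of 3 units, 243 with the style covariate, 863 with voom on non-crystallin reads, 3399 scaled by total reads and 533 (without KO 2) to 1943 (without CON 1) when 1 library was left out. The share of higher among called genes was 61.1%, against 47.3% with equal medians, 42.4% with the filter of 3 units and 71.3% without a filter. It was 47.1% with voom and the size factors and 97.5% scaled by total reads. Small differences changed sign. With equal medians Becn1 was at -0.00571, Gabarap at -0.0945, Glb1 at -0.10 and Tpp1 at -0.12. With the style covariate Atg7 was at 0.11, Gaa at -0.54, Tfe3 at -0.18 and Tfeb at -0.11. With quantile normalisation Atp6v0d1 was at 0.15, Gabarapl1 at 0.18 and Map1lc3b at 0.17. With voom on non-crystallin reads Atg7 was at 0.15, Atp6v0d1 at 0.12, Gabarapl1 at 0.062, Gabarapl2 at 0.14, Map1lc3b at 0.0661 and Wipi1 at 0.0165, while the median of all genes was at 0.23. With voom and the size factors Glb1 was at -0.000149 and Tpp1 at -0.002427. Scaled by total reads, where the median of all genes was at 0.86, Atg12 was at 0.49, Atg7 at 0.78, Atp6v0d1 at 0.74, Gabarapl1 at 0.68, Gabarapl2 at 0.75, Lamp1 at 0.0174, Map1lc3a at 0.48, Map1lc3b at 0.69, Mcoln1 at 0.14 and Wipi1 at 0.63. With 1 library left out, differences ranged from -0.14 to 0.16 for Gabarap, -0.0148 to 0.33 for Npc2, -0.14 to 0.11 for Tpp1, -0.26 to 0.010045 for Gabarapl2, -0.0924 to 0.13 for Glb1, -0.14 to 0.18 for Atg7, -0.23 to 0.0155 for Gabarapl1 and -0.0112 to 0.25 for Becn1. The cause of these shifts was not tested. Residuals of KO and CON libraries with the same number correlated at -0.364, -0.128 and -0.14. Libraries of different number were not compared, so these values cannot show whether the numbers pair the libraries. The replicate block, which called 914 genes, is given for completeness. Depth was lowest in CON 2, with 20361430 reads in genes. Its library name ends in L003 and those of the other libraries in L001, and the labels do not explain that mark.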
